A study of Homo sapiens with 8 samples.

Results

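The integrin subunits and laminin chains of HuCCT1 cells were read across 4 vectors, with 35 genes chosen by name. The list holds 25 integrin genes and 10 laminin genes, out of 34809 gene names on the array, and it leaves out some genes of both families. HuCCT1 is an established human cell line from an intrahepatic cholangiocarcinoma, a cancer of the bile duct epithelium. The control arm comprised 2 arrays of cells carrying shControl and 2 of cells carrying shNontarget. In the BEX2-knockdown arm, the sublines shBEX2-1 and shBEX2-2, which carry short hairpin RNAs against BEX2, had 2 arrays each. No further treatment is given for any group. The hairpins came from retroviral vectors, and the target sequences that the methods list for hairpins 1 and 2 run nearly along the same stretch on opposite strands, so the sublines are not shown to address separate sites. Whether a vector's 2 arrays stem from different cultures is not given in the sources used here, so the p-values measure the spread between these arrays, which may be technical.

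Integrins are receptors made of an α and a β subunit that tie the cytoskeleton to the matrix outside the cell. The α subunit largely sets what is bound, and most α subunits of epithelial cells pair with β1. αV also pairs with β3, β5, β6 and β8, and α6 also pairs with β4, the subunit of the hemidesmosome. Laminins are the ligands of α3, α6 and α7 integrins in the basement membrane, and each is a trimer of an α, a β and a γ chain. The αV integrins bind the RGD motif of fibronectin, vitronectin and latent TGF-β, and those with β6 or β8 are known as activators of TGF-β. Bile duct epithelium rests on a laminin-rich basement membrane.

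The sequences on which the readings rest are shown for ITGB5, the member with the smallest error among those that changed, and for LAMA4, whose probes gave different readings. All 3 are 60-base array probes, written 5′ to 3′ on the transcript strand, with the hg19 positions of the array annotation and no base set in capitals. The ITGB5 probe lies at chr3:124482491-124482550 on the minus strand. The first LAMA4 probe lies at chr6:112537570-112537629 and the second at chr6:112506440-112506499, both on the minus strand. Each can be read in at least 1 frame without a stop codon.
ITGB5, A_23_P166633: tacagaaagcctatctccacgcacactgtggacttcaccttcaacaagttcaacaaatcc
LAMA4, A_33_P3308749: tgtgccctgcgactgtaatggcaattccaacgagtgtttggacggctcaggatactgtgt
LAMA4, A_33_P3308744: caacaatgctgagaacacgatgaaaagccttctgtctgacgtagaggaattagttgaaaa

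Levels are log2 intensities relative to the 75th percentile of the array, so that 0 is the level of that percentile, and a level of one gene is not set against that of another. A gene was kept for testing when its brightest probe exceeded background clearly, by the scanner software's own flag, on 4 or more arrays of 8, which is called well above background here. That held for 26 of the 35 members, 18 integrins and 8 laminins, and for 20463 genes in all. The shNontarget arrays stood apart from the rest, since 34.9% of all kept genes lay over 1 log2 unit apart between the 2 of them, against 0.557% to 1.76% for the arrays of the other vectors. Among the 26 members, 7 differed by that much between the shNontarget arrays (ITGA7, ITGB3, ITGB4, ITGB6, LAMA5, LAMB2 and LAMB3), against 1 between the shBEX2-1 arrays (ITGA9) and 0 for the other vectors. Results are therefore given with and without these arrays. The control arrays lay in one row of the slide and the BEX2-knockdown arrays in the other, so row and group cannot be told apart. In bulk RNA, fewer cells of a type and less RNA per cell cannot be told apart either.

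BEX2, the target of the hairpins, was read at -3.36 and -3.91 in shControl and at -2.70 and -3.77 in shNontarget. It was at -5.21 and -5.54 in shBEX2-1 and at -4.92 and -4.60 in shBEX2-2. The control and BEX2-knockdown arrays did not overlap, and the log2 fold change was -1.63 ± 0.32 (SE, limma adjusted p = 0.0116). Its probe was well above background on 4 control and 2 knockdown arrays, so BEX2 was kept for testing only through the control arrays. The probe was not well above background on either shBEX2-1 array, so that subline has a bound only, at least 3.83-fold lower than the control mean, and the pooled value rests in part on it. That bound equals the fitted fold, since the probe's own values lay over the lowest level well above background. Against both control vectors, the limma adjusted p was 0.0336 for shBEX2-1 and 0.0813 for shBEX2-2.

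BEX2-knockdown cells had lower levels of 4 of the 26 tested members (15.4%), ITGB3, ITGB5, ITGB8 and ITGA3, while 6.26% of all tested genes were lower. ITGB3 was well above background on 4 control and 2 knockdown arrays, so it was kept for testing only through the control arrays. None of the 26 members was called higher, against 6.68% of all genes. At an unadjusted p under 0.05, 1 member was higher (LAMA1) and 6 were lower, or 7 of 26, where 27.8% of all genes were at that level. Of the 4 that fell, 3 encode β subunits that pair with αV. The median log2 fold change was -0.13 over the members and 0.03 over all tested genes, with 17 members below and 9 above 0. The control and BEX2-knockdown arrays did not overlap, with the knockdown lower, for 6 members, the 4 above with ITGB2 and LAMB1. Such separation was found for 10.7% of the genes with a value on every array, and 11.4% were separated with the knockdown higher, 0 of them members.

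**Figure D1:**
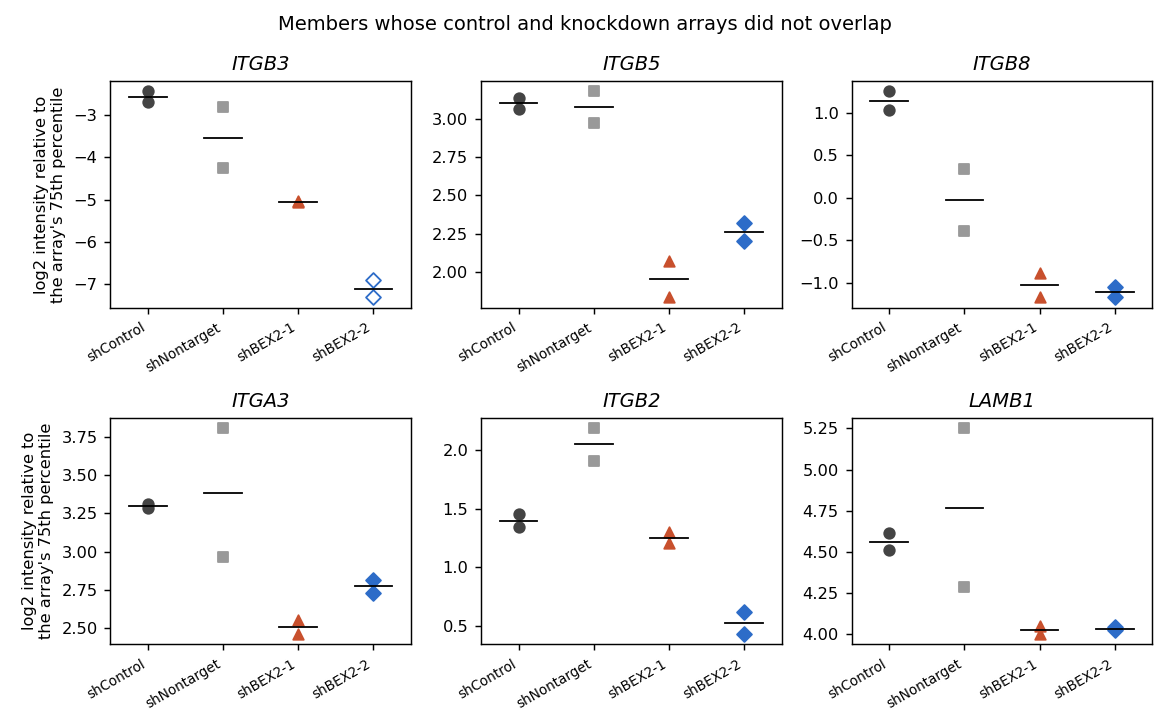
Level of 6 members on each array, as log2 intensity relative to the 75th percentile of the array, with 2 arrays per vector, a line at their mean, and open symbols where the probe was not well above background. All BEX2-knockdown arrays lie below all control arrays for each gene, and ITGB3 reaches -6.89 and -7.31 in shBEX2-2, where it was not well above background.

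ITGB3 encodes β3, the partner of αV on many cells and of αIIb on platelets. It stood at -2.69 and -2.45 in shControl and at -4.26 and -2.82 in shNontarget. It was at -5.03 and -5.07 in shBEX2-1 and at -6.89 and -7.31 in shBEX2-2. All 4 knockdown values were below every control value, and both shBEX2-2 arrays were below those of shBEX2-1. The fitted log2 fold change was -3.02 ± 0.61 (SE, limma adjusted p = 0.0136). ITGB3 was kept for testing only through the control arrays, where it is high. Because the probe was not well above background on either shBEX2-2 array, the pooled fold is a bound, at least 6.50-fold lower, and that subline also has a bound only, at least 10.6-fold lower than the control mean, with a measured mean of -7.10 against -3.05 and a limma adjusted p of 0.00457. ITGB3 in shBEX2-1 was lower by 2.00 ± 0.42 (SE) on the log2 scale than the control vectors, with a limma adjusted p of 0.0455 that became 0.0677 with the replicate number as a block. After normexp background correction, which compresses dim signals, the log2 fold change of ITGB3 was -0.74 with a limma adjusted p of 0.0536.

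ITGB5 encodes β5, the subunit of the vitronectin receptor αVβ5. Its levels were 3.07 and 3.14 in shControl and 2.97 and 3.18 in shNontarget. The sublines gave 1.83 and 2.07 for shBEX2-1 and 2.21 and 2.32 for shBEX2-2. The 4 control arrays spanned a narrow range here, those of shNontarget included, and every knockdown array lay below it. The log2 fold change was -0.98 ± 0.14 (SE), or 1.97-fold lower, with a limma adjusted p of 0.00296. Each subline was called on its own, with -1.14 ± 0.14 for shBEX2-1 (SE, limma adjusted p = 0.0102) and -0.82 ± 0.14 for shBEX2-2 (SE, limma adjusted p = 0.0177). With the median in place of the 75th percentile, the limma adjusted p for shBEX2-2 was 0.0538.

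ITGB8 encodes β8, the subunit of the TGF-β activating receptor αVβ8. The arrays read 1.03 and 1.25 in shControl, -0.39 and 0.34 in shNontarget, -1.17 and -0.89 in shBEX2-1, and -1.17 and -1.05 in shBEX2-2. The sublines were close to each other, and shNontarget lay between them and shControl. The log2 fold change was -1.63 ± 0.32 (SE, limma adjusted p = 0.0122), or 3.09-fold lower. Against both control vectors the log2 fold change of ITGB8 was -1.59 ± 0.23 in shBEX2-1 (SE, limma adjusted p = 0.0156) and -1.67 ± 0.23 in shBEX2-2 (SE, limma adjusted p = 0.0103). With shControl alone as control, the ITGB8 log2 fold change was -2.21, and with shNontarget alone it was -1.05, with a limma adjusted p of 0.0799. The control vectors themselves differed by -1.17 ± 0.26 at ITGB8 (SE, shNontarget minus shControl, limma unadjusted p = 0.00408, adjusted p = 0.388).

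ITGA3 encodes α3, which with β1 is an epithelial laminin receptor. It was read at 3.31 and 3.28 in shControl and at 2.96 and 3.81 in shNontarget. The levels were 2.46 and 2.55 in shBEX2-1 and 2.73 and 2.82 in shBEX2-2. The lower shNontarget array lay close to the shBEX2-2 arrays, without overlap. The log2 fold change was -0.70 ± 0.18 (SE, limma adjusted p = 0.0382), or 1.62-fold lower, and it stayed past the threshold in 11 of 22 alternative settings. Taken alone, neither subline passed, with limma adjusted p-values of 0.0971 for shBEX2-1 and 0.214 for shBEX2-2.

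ITGB2 encodes β2, the subunit of leukocyte integrins. Its readings were 1.45 and 1.34 in shControl, 1.91 and 2.19 in shNontarget, 1.30 and 1.20 in shBEX2-1, and 0.62 and 0.43 in shBEX2-2. The shBEX2-2 arrays were the lowest and those of shBEX2-1 lay just under shControl. In shBEX2-2 it was lower by 1.20 ± 0.14 (SE) on the log2 scale than the control vectors (limma adjusted p = 0.00575). In shBEX2-1 the log2 fold change was -0.47 ± 0.14 (SE, limma adjusted p = 0.106), and for both sublines together it was -0.83 ± 0.26 (SE, limma adjusted p = 0.0641). The α partners of β2 gave little or no signal. ITGAL and ITGAX were not well above background on any array, and ITGAM was on 1 array.

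Other α subunits did not pass the test in any of the 3 comparisons with both control vectors. ITGAV, the α partner that β3, β5 and β8 share, read 3.38 and 3.60 in shControl, 2.68 and 3.09 in shNontarget, 2.69 and 2.84 in shBEX2-1 and 2.72 and 2.87 in shBEX2-2. The knockdown arrays were below shControl and among the shNontarget values. Its log2 fold change was -0.41 ± 0.19 (SE, limma adjusted p = 0.208). ITGB1, the common β subunit, lay between 1.92 and 2.73 on control arrays and between 2.26 and 2.51 on BEX2-knockdown arrays, and its log2 fold change was -0.07 ± 0.19 (SE, limma adjusted p = 0.859).

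Among collagen-binding α subunits, ITGA1 lay between -2.82 and -1.52 in controls and between -1.91 and -1.57 in knockdowns. ITGA2 was between -0.50 and 0.27 in controls and between -0.49 and -0.15 in knockdowns, and ITGA11 was between -4.89 and -4.57 against -5.21 and -4.61. These ranges overlapped for all 3 genes, with log2 fold changes of 0.32 for ITGA1, -0.31 for ITGA2 and -0.13 for ITGA11. The laminin-binding ITGA6 lay between 1.54 and 1.67 in controls and between 1.31 and 1.91 in knockdowns, and ITGA7 between -3.75 and -1.71 against -2.78 and -2.46. ITGA5, the fibronectin receptor subunit, was read between -2.48 and -1.82 in controls, at -2.10 and -2.15 in shBEX2-1 and at -1.57 and -1.38 in shBEX2-2. The shBEX2-2 arrays were the highest for ITGA5, with a log2 fold change of 0.64 ± 0.21 (SE, limma adjusted p = 0.126). ITGA9, a receptor subunit for tenascin and osteopontin, lay between -5.55 and -4.82 in controls and between -5.09 and -3.90 in knockdowns. ITGAE, which pairs with β7 to bind E-cadherin, lay between -0.68 and 0.54 against -0.38 and -0.10.

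The remaining β subunits overlapped between the arms. ITGB4, the hemidesmosome subunit, read 4.42 to 5.61 on control arrays and 4.55 to 4.77 on knockdown arrays. Its log2 fold change was -0.21 ± 0.24 (SE, limma adjusted p = 0.614). ITGB6, the subunit of the epithelial αVβ6, was at -1.71 and -1.77 in shControl, -3.40 and -2.31 in shNontarget, -1.74 and -1.93 in shBEX2-1, and -2.58 and -2.69 in shBEX2-2. The shBEX2-1 arrays were close to shControl and the shBEX2-2 arrays lay within the span of shNontarget. ITGB7, the partner of αE and α4, lay between -2.06 and -1.13 in controls and between -1.78 and -1.56 in knockdowns.

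Of the 8 tested laminin chains, 0 were called in the comparison of knockdown with control by limma, and 2 had an unadjusted p under 0.05, LAMB1 lower and LAMA1 higher. LAMB1, the β1 chain of many basement membrane laminins, was at 4.51 and 4.61 in shControl, 4.29 and 5.25 in shNontarget, 4.0 and 4.05 in shBEX2-1 and 4.03 and 4.04 in shBEX2-2. All knockdown arrays were below all control arrays and lay close together. The log2 fold change was -0.64 ± 0.20 (SE, limma adjusted p = 0.0684). LAMA1, the α1 chain typical of early embryonic basement membranes, was well above background on 1 of 4 control arrays and on 4 of 4 knockdown arrays. It read between -6.26 and -5.26 in controls and between -5.30 and -4.73 in knockdowns, and its log2 fold change was 0.72 ± 0.28 (SE, limma adjusted p = 0.135). It was kept for testing only through the knockdown arrays.

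LAMA3 and LAMB3 encode chains of the laminin that anchors hemidesmosomes. LAMA3 lay between 3.86 and 4.98 in controls and between 3.82 and 4.45 in knockdowns. LAMB3 was read at 5.95 and 5.97 in shControl, 6.29 and 7.39 in shNontarget, and between 5.78 and 6.21 in the knockdowns. The shNontarget arrays were the highest of the 8 for LAMB3, and 1 of them was for LAMA3. LAMA5, the main α chain of adult epithelial basement membranes, lay between 0.86 and 2.55 in controls and between 0.86 and 1.31 in knockdowns. LAMB2, the β2 chain, spanned 2.17 to 4.24 in controls and 2.48 to 2.64 in knockdowns. LAMC1, the common γ1 chain, spanned 1.52 to 2.36 against 1.92 to 2.18. The 3 ranges overlapped, and the highest control value was in each case an shNontarget array.

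LAMA4, the α4 chain found chiefly in mesenchymal and vascular basement membranes, was read by 4 probes, all well above background on the 8 arrays. The brightest, A_33_P3391603, which the array assigns to the transcript NM_001105209, gave a log2 fold change of 0.23 ± 0.25 (SE, limma adjusted p = 0.589). A_33_P3308749, whose sequence is shown above, fell by 1.08 on the log2 scale (SE 0.21, limma adjusted p = 0.0103), and A_33_P3308744 by 0.80 (SE 0.20, limma adjusted p = 0.0306). These p-values were adjusted over 25070 probes. A_33_P3308749 read between -1.17 and -0.39 on control arrays and between -2.20 and -1.62 on knockdown arrays, and A_33_P3308744 between -0.68 and 0.15 against -1.30 and -0.80. Neither overlapped between the arms, while the ranges of the brightest probe, -0.18 to 0.90 and 0.14 to 0.69, did. The dim A_33_P3391596 had a log2 fold change of -0.42 ± 0.21 (SE, limma adjusted p = 0.230). Because the brightest probe stood for the gene, LAMA4 is not among the called members. Its direction depends on the probe, since all the other probes gave values below 0. Unlike the LAMA4 probes shown above, the brightest has a stop codon in each frame.

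**Figure D2:**
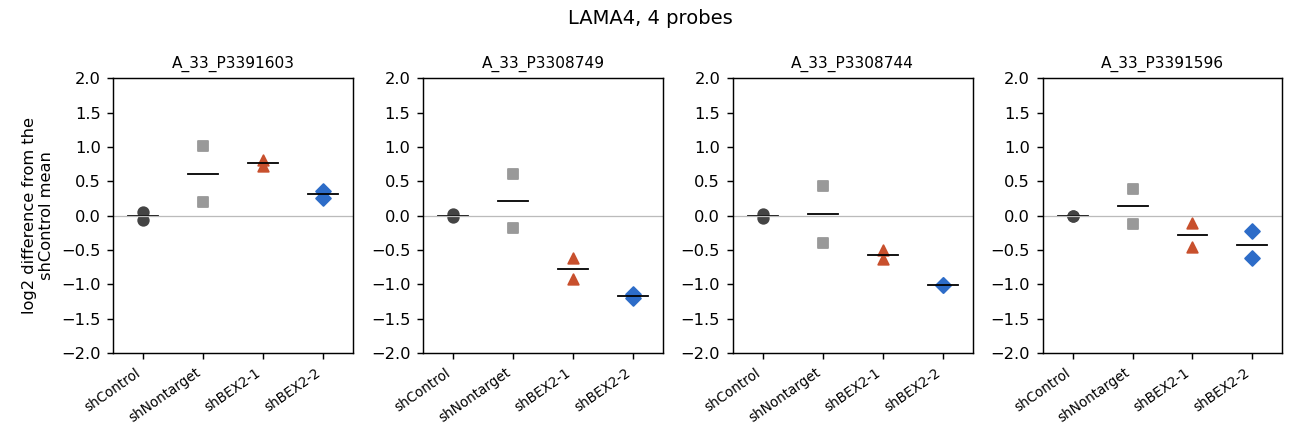
Log2 difference of each array from the mean of the 2 shControl arrays for the 4 probes of LAMA4, with a line at the mean of each vector. The knockdown arrays lie above shControl for A_33_P3391603 and below every control array for A_33_P3308749 and A_33_P3308744.

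Both probes of LAMB2 gave the same log2 fold change to 2 decimals, -0.58 (limma adjusted p = 0.337 and 0.342). For ITGA6, the brighter probe gave 0.03 and the other, A_33_P3231447, gave 0.47 ± 0.22 (SE, limma adjusted p = 0.206).

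The other 9 members were not tested. ITGA8, ITGA2B, ITGA4, ITGAL and ITGAX were not well above background on any array. ITGA10 was well above background on 3 arrays, all of them controls, LAMA2 on 2, ITGAM on 1 and LAMC3 on 1. The collagen receptor subunit α10, the platelet subunit αIIb and the muscle-type laminin chain α2 thus had no comparison here.

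Set against both control vectors, shBEX2-1 had 3 lower members (11.5%), ITGB3, ITGB5 and ITGB8, where 3.62% of all genes were lower, and 0 higher, where 3.38% were higher. In shBEX2-2, 4 members were lower (15.4%), the same 3 genes and ITGB2, where 4.81% of all genes were lower, and 0 were higher, where 4.86% were. At an unadjusted p under 0.05, limma gave 1 higher member in shBEX2-1 (LAMA1) and 6 lower, where 22.8% of all genes passed. In shBEX2-2 it gave 2 higher (ITGA1 and ITGA5) and 4 lower at that level, where 23.8% of all genes passed. Both comparisons used the same 4 control arrays, and both counts of lower members include ITGB3, kept for testing only through those arrays.

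**Figure D3:**
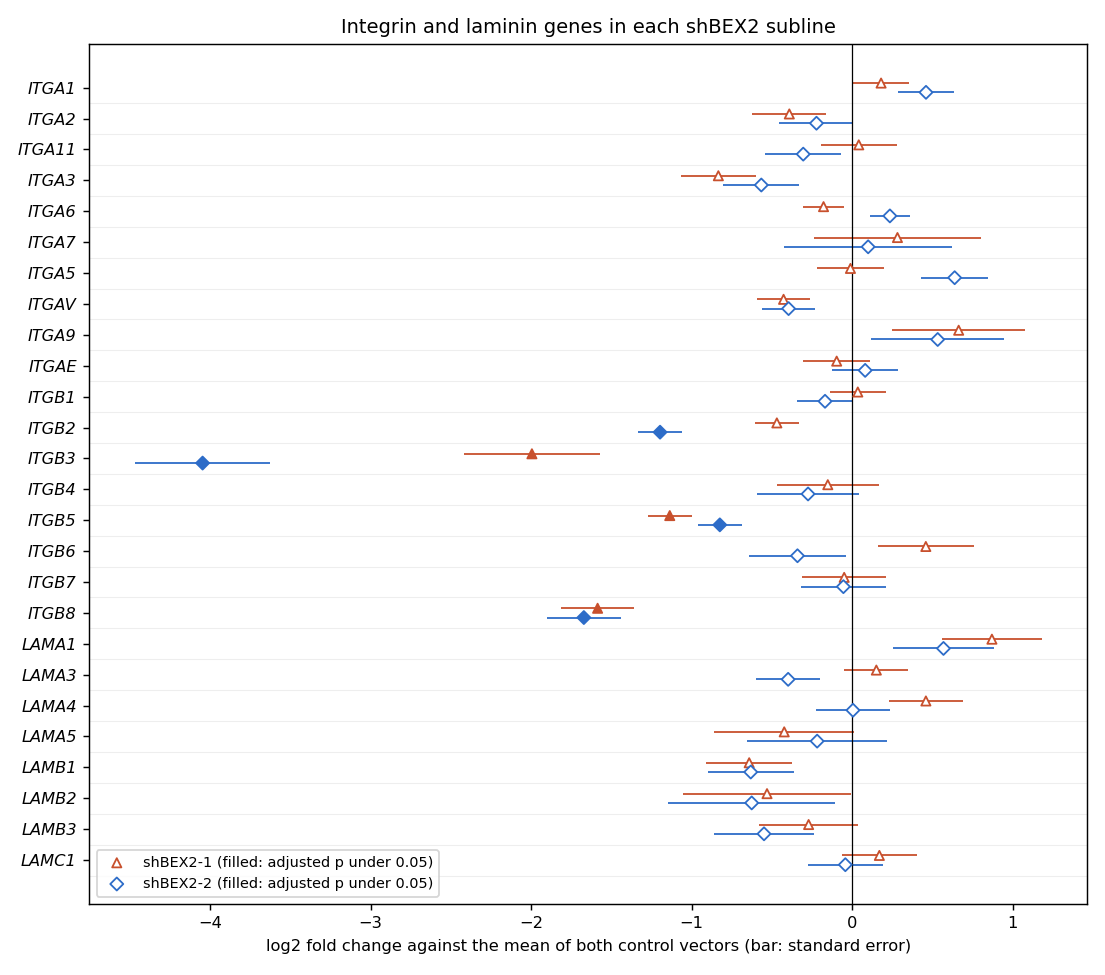
Log2 fold change of the 26 tested members in shBEX2-1 and in shBEX2-2 against the mean of both control vectors, with bars of 1 standard error and filled symbols at an adjusted p under 0.05. Filled symbols are found at ITGB3, ITGB5 and ITGB8 in both sublines and at ITGB2 in shBEX2-2, all below 0.

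The direct comparison of the sublines called 0 of the 26 members with limma, and 0.00977% of all genes. At an unadjusted p under 0.05, ITGB2 and ITGB3 were higher in shBEX2-1 than in shBEX2-2 and ITGA5 and ITGA6 were lower. ITGB3, with a bound only in shBEX2-2, was at least 2.66-fold higher in shBEX2-1 (limma adjusted p = 0.275), and ITGB2 differed by 0.73 ± 0.16 (SE, limma adjusted p = 0.232). Over all genes, 7.29% had an unadjusted p under 0.05 in this comparison. The 2 control vectors, neither of which carries a BEX2 hairpin, had 0 members called between them, and 0% of all genes. At a limma unadjusted p under 0.05 there were 9 of the 26 members and 7.64% of all genes, with ITGB8, ITGB6, ITGA1, ITGAV and ITGB1 lower and ITGAE, ITGB2, LAMA3 and LAMB3 higher in shNontarget.

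With the shNontarget arrays left out, more members passed. Against shControl alone, 9 of the 26 were lower (34.6%), where 16.2% of all genes were, and 3 were higher (11.5%), where 17.2% were. The 9 were ITGA2, ITGA3, ITGAV, ITGB1, ITGB3, ITGB5, ITGB8, LAMB1 and LAMB2. ITGAV then had a log2 fold change of -0.72 ± 0.10 (SE, limma adjusted p = 0.00173), LAMB1 of -0.53 ± 0.07 (SE, limma adjusted p = 0.00197) and LAMB2 of -0.54 ± 0.09 (SE, limma adjusted p = 0.00452). The 3 higher members were LAMA4 by its brightest probe at 0.54, ITGAE at 0.40, and LAMA1. LAMA1 was not well above background on either shControl array and is at least 1.98-fold higher by its bound. Against shNontarget alone, 0 members were called lower and 0 higher by limma, where 0.713% and 0.948% of all genes were. At an unadjusted p under 0.05 in that fit, 7 members were lower and 1 higher, where 18.6% of all genes passed.

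A model of shControl and the 2 sublines, added after the data were seen, called 10 members lower and 4 higher in shBEX2-1, where 20.7% and 22.8% of all genes were. It called 11 lower and 3 higher in shBEX2-2, where 22.5% and 21.6% were. In both sublines the lower members included ITGA2, ITGA3, ITGAV, ITGB1, ITGB3, ITGB5, ITGB8, LAMB1 and LAMB2. Between the sublines it called 8 members, where 14.6% of all genes were called. ITGB6 (0.80), ITGB2 (0.73), LAMA3 (0.55) and LAMA4 by its brightest probe (0.45) were higher in shBEX2-1, as log2 differences, and so was ITGB3, with the bound given above. ITGA5 (-0.65), ITGA6 (-0.41) and ITGA3 (-0.27) were lower in shBEX2-1 than in shBEX2-2.

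**Figure D4:**
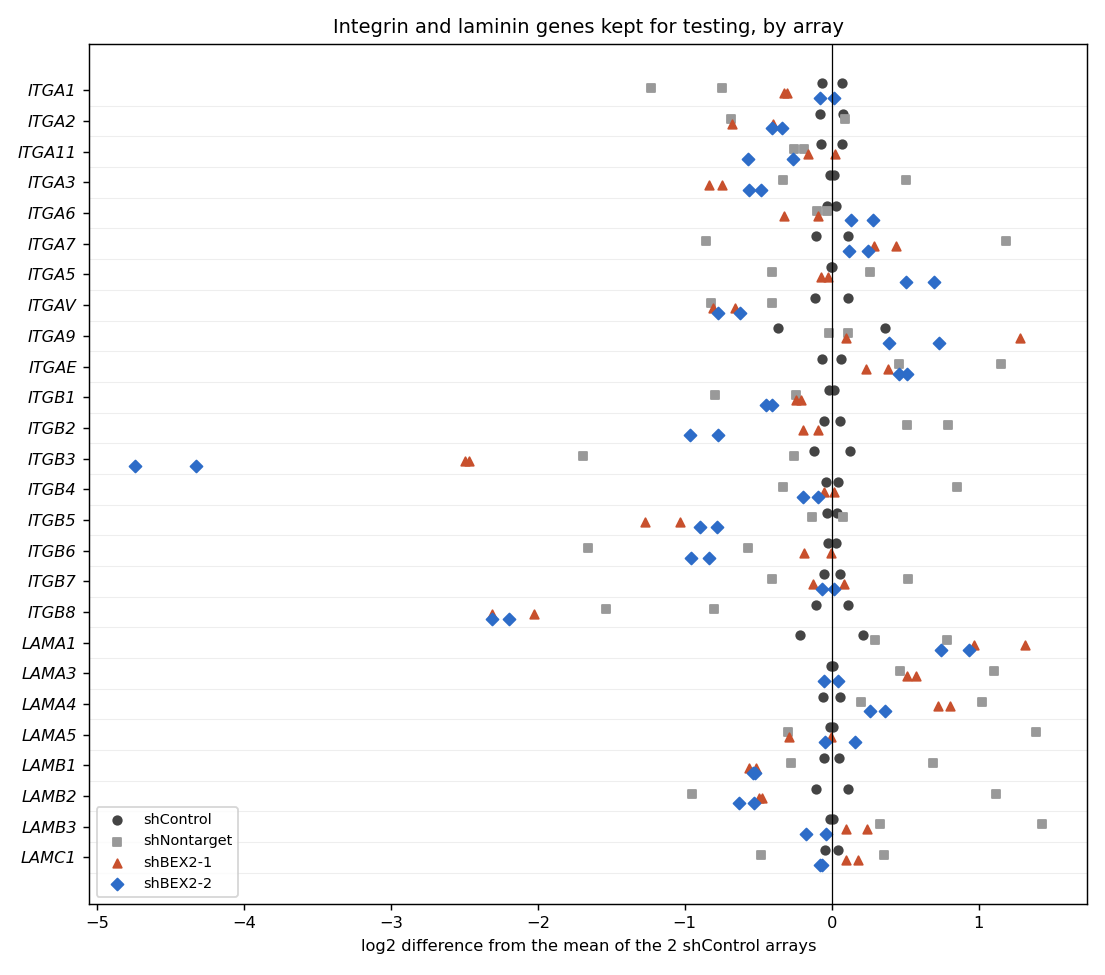
Log2 difference of each array from the mean of the 2 shControl arrays for the 26 tested members, with 2 arrays per vector. The shNontarget arrays are spread widely for most genes, while the knockdown arrays lie furthest below shControl for ITGB3 and ITGB8.

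Genes that work with integrins and laminins were read from lists compiled by hand. The counts below stand beside 6.26% lower and 6.68% higher over all genes, and the lists are small. Of 24 tested adaptors and kinases at integrin tails, 3 were lower (LIMS2, FLNA and FERMT1) and 1 higher (TNS4). LIMS2, an adaptor of the complex with integrin-linked kinase, was between -2.18 and -0.81 on control arrays and between -3.43 and -3.00 on knockdown arrays, a log2 fold change of -1.85 ± 0.30 (SE, limma adjusted p = 0.00542). Of 9 tested basement membrane genes, 1 was called. COL4A6, a type IV collagen chain, rose from between -4.49 and -3.10 on control arrays to between -1.82 and -1.41 on knockdown arrays, a log2 fold change of 2.28 ± 0.27 (SE, limma adjusted p = 0.00171).

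Of 9 tested other integrin ligands, 3 were lower (CTGF, FBLN1 and NPNT) and 1 higher (THBS1). CTGF, a matricellular ligand, had a log2 fold change of -1.79 ± 0.48 (SE, limma adjusted p = 0.0413), with the shNontarget arrays highest at -0.01 and 0.87. NPNT, nephronectin, the ligand of α8β1, lay between -4.33 and -3.56 on control arrays and between -5.44 and -4.80 on knockdown arrays. Its log2 fold change was -1.19 ± 0.25 (SE, limma adjusted p = 0.0146). Only 5 arrays had NPNT well above background, so its fall rests in part on dim values. It may have been kept for testing only through the control arrays, where it is high. No array had ITGA8, its receptor subunit, well above background. Of the 4 hemidesmosome genes and the 5 other laminin receptors 0 passed limma's test (also 0 at an unadjusted p under 0.05), and of the 5 integrin-binding tetraspanins TSPAN4 was higher. The median log2 fold changes of these lists lay between -0.13 and 0.07, where that of all genes was 0.03.

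All 8 biliary epithelial markers were well above background on all 8 arrays, and their summed level, in units of the 75th percentile, was 633 to 895 on control arrays and 854 to 1023 on knockdown arrays, with KRT8 called higher (log2 fold change 1.02). Of 5 hepatocyte markers, ALB, TTR and HNF4A were not well above background on any array, CYP3A4 was on 1 and APOA1 on 6, and the 5 summed to 0.0697 to 0.125 on control and 0.0660 to 0.104 on knockdown arrays. β2 and β3 are best known from leukocytes and platelets, so the markers of those cells were read as well. The 3 leukocyte markers read here, PTPRC, CD3E and CD14, summed to 0.366 to 0.497 on control and 0.549 to 0.614 on knockdown arrays, with CD14 called higher (log2 fold change 0.54). PTPRC was well above background on 7 arrays and CD3E on 3. The 3 platelet markers summed to 0.195 to 0.306 and 0.352 to 0.428, with PF4 called higher (0.77) and GP1BA not well above background on any. The CD14 and PF4 levels made up most of these sums. The 5 fibroblast markers summed to 0.203 to 0.715 and 0.298 to 0.338, and the 4 endothelial markers to 0.141 to 0.218 and 0.167 to 0.205. The part of other cell types in the results was not tested.

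The promoters of ITGB8 and ITGB5, 2 members that fell in both sublines, are shown as the 250 bases before the transcription start, from RefSeq on GRCh38.p14. ITGB8 is at chr7:20330650-20330899 on the plus strand, and ITGB5, by the outermost of 3 starts listed, is at chr3:124901419-124901668 on the minus strand. Capitals mark the GC box, GGGCGG on either strand.
ITGB8: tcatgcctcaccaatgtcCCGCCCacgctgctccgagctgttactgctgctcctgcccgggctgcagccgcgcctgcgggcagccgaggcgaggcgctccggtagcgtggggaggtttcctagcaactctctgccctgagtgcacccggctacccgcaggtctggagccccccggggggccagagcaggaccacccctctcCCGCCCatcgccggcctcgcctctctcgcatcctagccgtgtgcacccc
ITGB5: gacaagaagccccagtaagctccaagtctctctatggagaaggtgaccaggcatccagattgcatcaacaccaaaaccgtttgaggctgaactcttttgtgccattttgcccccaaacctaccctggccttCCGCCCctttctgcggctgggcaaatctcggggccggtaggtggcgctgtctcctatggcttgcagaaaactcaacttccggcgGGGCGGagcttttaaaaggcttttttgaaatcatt
Both windows held 2 GC boxes, and the other ITGB5 windows held 0 and 3. The GC box was found in at least 1 window of 14 of the 25 members with an entry, and in 42.6% of 35116 windows of this length. A member can have up to 3 windows, which raises the count by member, so these figures are not set against each other. The AP-1 letters TGAGTCA (4.20% of all windows) and the E-box letters CACGTG (6.34%), sought on both strands, were in none of the ITGB8 and ITGB5 windows. These matches describe the letters only.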

How the data were processed

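RNA of HuCCT1 cells was labelled with Cy3 and hybridized to 8 single-colour Agilent arrays of design 028004, annotated on hg19. The authors deposited the processed intensity of each spot from Agilent Feature Extraction 10.7.3.1, background-subtracted within the array and not scaled between arrays. Control spots and spots flagged as non-uniform were left out. From the log2 intensity the 75th percentile of the same array was subtracted, replicate spots were averaged, and a gene was represented by its brightest probe. A probe was well above background on an array when no more of its spots lacked than carried that mark in the deposited files. Of the 58717 spots per array that are not controls, 59.8% to 64.6% carried that mark, and 0 were saturated. The number of arrays limits the precision.

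Tests used limma 3.58.1 in R 4.3.3 (lmFit, eBayes with a trend) over all 20463 kept genes, two-sided, called at a Benjamini-Hochberg adjusted p under 0.05. One fit compared 4 with 4 arrays. It counts the 2 arrays of a vector as independent, although each arm holds only 2 vectors. Another fit gave each of the 4 vectors a mean. With such a model, the limma adjusted p of ITGA3, knockdown against control, was 0.0643. The rank product that the study names was not run. A bound on a fold sets a dim value at the higher of its own level and the lowest level among probes well above background on that array. The scripts were tested on simulated data. Tables and figures were made with Python 3.11.15, pandas 2.3.3, numpy 2.4.6 and matplotlib 3.10.9. All 35 members are RefSeq symbols, and 25 have a promoter entry. PLEC is listed on the array by an older name. A further leukocyte marker is not reported here. Every member is named, by level where tested, and listed partners where called with a log2 change over 1. The members and lists were chosen with earlier results of these data known. Alternatives covered normalization, background correction, the deposited table of the whole series, which holds the same intensity to within 0.497%, the filter, the probe, the model, the control vector and each array left out.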

Additional observations from a re-analysis of the deposited data

How the results depend on the processing

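The falls of ITGB5 and ITGB8 with BEX2 knockdown passed the threshold in 21 of 22 alternative settings each, that of ITGB3 in 18 of 21 and that of ITGA3 in 11 of 22, and none of the 4 changed direction. ITGB5 and ITGB8 lost the call against shNontarget alone. ITGB3 lost it there, under normexp and with the methods' t-test. The number of members called with knockdown was 12 against shControl alone, where 33.4% of all genes were called. It was 0 against shNontarget alone, where 1.66% were. The methods' Student's t-test gave 2 after Benjamini-Hochberg adjustment, where 10.6% of all genes were called. It gave 7 at the methods' threshold of p under 0.05, where 26.5% of all genes passed. The reported fit gave 4, where 12.9% were called. Leaving out 1 array at a time gave 3 to 9, with 9 reached without shNontarget replicate 1, where 23.1% of all genes were called. Without an array of any other vector, 6.07% to 8.32% of all genes were called. For the sublines, a vector left with 1 array takes its spread from the other vectors. With shControl alone as control, 3 and 4 members were called, the numbers reported, where 5.32% and 7.41% of all genes were. With shNontarget alone as control, 3.12% of all genes were called in shBEX2-1 and 6.20% in shBEX2-2. The shBEX2-2 calls in that fit held 3 lower members and 1 higher, ITGA1. Under normexp, shBEX2-1 had 2 lower members and 1 higher, LAMA1, where 11.8% of all genes were called. For shBEX2-1, shNontarget alone as control gave 1 member, the 3-vector model without both shNontarget arrays gave 14, and leaving out 1 array gave 0 to 15 (15 where 52.6% of all genes were called). For shBEX2-2, that model gave 14 and leaving out 1 array gave 0 to 20 (20 where 51.5% were). Between the sublines the same model gave 8, and leaving out 1 array gave 0 to 8 (8 where 14.4% and 14.7% were). Between shNontarget and shControl, leaving out 1 array gave 0 to 20 (20 where 46.3% were). Within the sublines, ITGB5 passed in 14 of 20 settings for shBEX2-1 and 13 of 20 for shBEX2-2, ITGB8 in 13 and 15 of 20, ITGB3 in 9 and 17 of 19, and ITGB2 in 18 of 20 for shBEX2-2. The high counts came without an shNontarget array. The low ends came for a subline without one of its own arrays or, for shBEX2-1, also without an shControl or an shBEX2-2 array. Few or no genes of the whole set were called in those fits, so these low ends are not a result about the members. ITGAE turned from -0.01 to 0.40 against shControl alone, where it was called. In all, 14 of the 26 members took both signs over the alternatives, none of them called in the reported fit. The causes were not tested.

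The replicate numbers go with 1 date each in the names of the deposited files, with no word on what was done then. Over 6 pairs of vectors, the replicate differences correlated across genes with r of -0.06 for shNontarget with shBEX2-1 and of 0.11 to 0.26 for the others. The numbers were not taken as a pairing, since the correlation was not positive in every pair. A shared effect of the replicates was not tested. With the replicate number as a block, 4 members were called with knockdown, 2 in shBEX2-1 (ITGB3 was lost at an adjusted p of 0.0677), 4 in shBEX2-2 and 0 in the other comparisons. Of 52 groups of 4 arrays, none held an array that stood apart by Dixon's ratio. Chance gives about 1 in 20 for 4 independent arrays, while an arm held 2 arrays from each of 2 vectors. The ratio seeks a single array apart from the rest, so it cannot show whether the shNontarget arrays stood apart.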
